A study of Homo sapiens with 6 samples.

Results

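The transcripts of 6 cyclin-dependent kinase (CDK) inhibitor genes were examined in K562 lines induced for wild type C/EBPα, its p30 isoform or neither. The genes were chosen by name and were CDKN1A, CDKN1B, CDKN1C, CDKN2C, CDKN2D and CDKN3. All 6 had a single row in each of the 3 deposited tables, and they are 6 of the 16586 gene symbols that could be followed over the 3 groups. K562 is an established human leukemia line with erythroid features. CTR cells carried the empty inducible vector, CEBPA cells a doxycycline-inducible wild type C/EBPα and P30 cells a doxycycline-inducible p30 isoform, each as a stable line made with the PiggyBac transposon. All 3 lines received 200 ng/ml doxycycline for 48 h, and no untreated cells were among the samples. The paper's western blot at 48 h names both full-length C/EBPα and p30 in the CEBPA line. CEBPA against P30 thus does not set the full-length protein alone against p30. RNA-seq was carried out on 2 replicates of each line, and the deposited value is 1 FPKM per gene and line, that is, a fragment count scaled by the length of the transcript and by the mapped total, with both replicates pooled. FPKM given as a row of 3 are those of CTR, CEBPA and P30, in this order. The pooled values carry no spread between replicates and no depth, so no p-value is given, and every difference reported here is a description of pooled values. The effect of an isoform and a difference between separately made lines cannot be told apart.

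CDK inhibitors are the brakes of the cell division cycle. The Cip/Kip proteins p21 (CDKN1A), p27 (CDKN1B) and p57 (CDKN1C) bind cyclin-CDK complexes, above all those of CDK2, whereas the INK4 proteins p18 (CDKN2C) and p19 (CDKN2D) bind CDK4 and CDK6 and keep D-type cyclins from activating them. CDKN3 is a phosphatase that removes the activating phosphate of CDK2 and is itself made mainly in dividing cells. In the myeloid lineage these proteins accompany the exit from the cycle during granulocyte maturation. C/EBPα is known both as a driver of granulocyte differentiation and as an inhibitor of proliferation. In these lines, the paper reports that doxycycline arrested the growth of CEBPA cells and led them into granulocytic differentiation. Proliferation of CTR and P30 cells was reported as unaffected. The part of this arrest in the transcript differences given here was not tested. Much of the control of p27 acts on its translation and on the stability of the protein, which transcript levels do not show. The study took an interest in p27 because it examined the long non-coding RNA UCA1 as a repressor of p27 expression.

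On the hg19 build used for the alignment (GRCh37), the members lie on 6 chromosomes and are all annotated as protein coding. CDKN1A (ENSG00000124762) spans chr6:36644237-36655114 on the plus strand. CDKN1B (ENSG00000111276) spans chr12:12838432-12875303 on the plus strand, and CDKN1C (ENSG00000129757), an imprinted gene, spans only 2563 bp at chr11:2904443-2907005 on the minus strand. CDKN2C (ENSG00000123080) spans chr1:51426417-51440306 on the plus strand and CDKN2D (ENSG00000129355) chr19:10677136-10679735 on the minus strand. CDKN3 (ENSG00000100526) spans chr14:54863567-54886936 on the plus strand and has the most exons, 8 in its canonical transcript, against 2 to 4 in the others. No annotated gene overlapped a member on the same strand. On the opposite strand, GPR19 overlapped CDKN1B and had 0.482, 1.04 and 0.647 FPKM, below CDKN1B in every line. The lncRNA DINOL overlapped CDKN1A and an unnamed lncRNA overlapped CDKN2C, and neither was analysed here. The libraries were strand-specific.

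The promoters are shown because the induced proteins are transcription factors whose sites can be looked for in them. RefSeq windows from 250 bases before to 50 bases after a transcription start were at hand for 5 of the 6 members (CDKN1A, CDKN1B, CDKN2C with 3 starts, CDKN2D and CDKN3), and each matched GRCh37 exactly at 1 position. CDKN1C had no entry. The stretches below are the parts of the windows that lie before the start used in the window and hold no base of an annotated exon of the gene, read 5′ to 3′ on the strand of the gene. Capitals mark CCAAT on either strand and the C/EBP-like pattern TTNNGNAA on either strand, in which N is any base. These are separate patterns, and CCAAT was not counted as a C/EBP-like site. In the stretches of CDKN1B, CDKN2D and CDKN3 all capitals are CCAAT. CDKN1A and CDKN1B also have annotated exons upstream of the stretches shown.
CDKN1A, chr6:36646241-36646486, plus strand: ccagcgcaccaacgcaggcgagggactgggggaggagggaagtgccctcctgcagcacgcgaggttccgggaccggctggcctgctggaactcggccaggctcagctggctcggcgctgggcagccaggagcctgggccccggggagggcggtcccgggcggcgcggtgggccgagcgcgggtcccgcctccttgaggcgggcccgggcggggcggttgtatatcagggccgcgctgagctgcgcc
CDKN1B, chr12:12870052-12870301, plus strand: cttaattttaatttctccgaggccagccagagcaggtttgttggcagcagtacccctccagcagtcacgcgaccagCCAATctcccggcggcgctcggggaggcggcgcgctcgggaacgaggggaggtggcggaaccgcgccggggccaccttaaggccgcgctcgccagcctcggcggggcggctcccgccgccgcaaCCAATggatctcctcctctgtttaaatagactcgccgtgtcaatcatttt
CDKN2C, most upstream start, chr1:51426167-51426416, plus strand: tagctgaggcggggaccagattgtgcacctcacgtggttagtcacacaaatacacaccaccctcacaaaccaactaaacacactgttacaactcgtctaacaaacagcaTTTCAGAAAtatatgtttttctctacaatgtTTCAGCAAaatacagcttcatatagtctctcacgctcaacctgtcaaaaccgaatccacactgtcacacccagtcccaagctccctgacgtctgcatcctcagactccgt
CDKN2D, chr19:10679736-10679905, minus strand: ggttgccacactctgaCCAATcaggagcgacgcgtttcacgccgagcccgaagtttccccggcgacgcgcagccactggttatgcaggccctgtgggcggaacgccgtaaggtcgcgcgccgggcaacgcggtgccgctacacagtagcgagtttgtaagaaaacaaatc
CDKN3, chr14:54863475-54863566, plus strand: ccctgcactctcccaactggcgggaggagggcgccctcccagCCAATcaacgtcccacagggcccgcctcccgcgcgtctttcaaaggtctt

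The C/EBP-like pattern was found only in windows of CDKN2C, at the most upstream start, where 2 of its 3 matches overlap, and at the most downstream start. It occurs in 36.8% of the 35116 RefSeq windows, so that its presence or absence in a window says little. CCAAT was found in CDKN1B, CDKN2D, CDKN3 and 1 of the 3 windows of CDKN2C, and in 34.6% of all windows. CDKN1A held neither pattern but 4 matches to the Sp1-like GGGCGG, of which the last 2 overlap by 1 base, and 45% of all windows hold at least 1. The E2F-like sequences TTTCGCGC and TTTGGCGC, present in 1.15% of all windows, were not found in any member. TTTGAA, the cell cycle genes homology region (CHR), was found once, in CDKN3, and in 15.2% of all windows. The windows of CDKN1A, CDKN1B, CDKN2D and CDKN3 were rich in G and C, with 62.3% to 74.3% against a median of 58.7% over all windows. The windows of CDKN2C lay on both sides of this median, with 46.3%, 71.3% and 49.3% from the most upstream to the most downstream start. These matches describe the letters of the windows and do not show that a factor bound there.

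**Figure D1:**
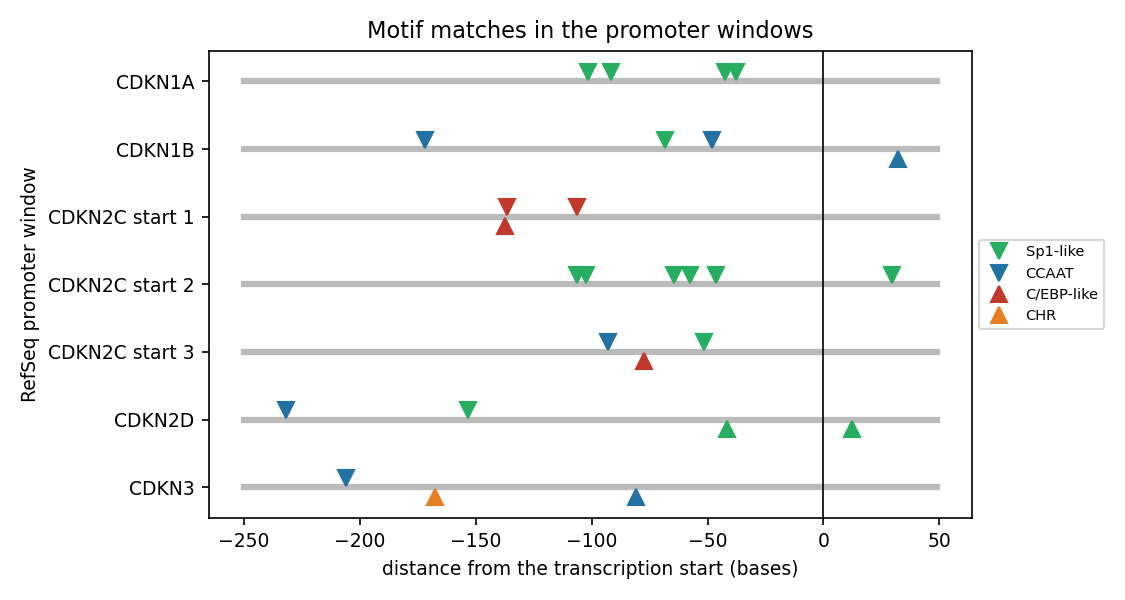
Matches to each motif in the 7 RefSeq promoter windows of 5 members, by distance from the transcription start in bases; triangles above a line are on the strand of the gene and those below it on the other strand. C/EBP-like matches lie only in windows of CDKN2C, and CDKN1A holds 4 Sp1-like matches and nothing else that was searched for.

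Before the members are described, the lines were set against markers of their cell type. Of 9 erythroid markers 8 had a single row, and all 8 were over 1 FPKM in every line. Their summed FPKM was 1672, 701 and 1019.8. Of 10 granulocytic markers 7 had a row, and the number over 1 FPKM was 2 in CTR, 7 in CEBPA and 5 in P30, with summed FPKM of 7.16, 8441 and 42.2. None of the 7 was listed at 0. S100A9 and S100A8, calcium-binding proteins of granulocytes, made up most of the sum in CEBPA, with 4623 and 3731 FPKM, whereas ITGAM, an integrin of myeloid cells, was highest in P30, with 2.59, 2.43 and 14.3 FPKM. HBG1 was the largest part of the erythroid sum in every line, with 872, 389 and 410 FPKM. The erythroid markers did not all follow their sum either. TFRC, the transferrin receptor, had 133, 134 and 145 FPKM, HEMGN 59.0, 23.0 and 20.2 and GATA1 185, 53.1 and 193. The sums of both lists differed among all 3 lines, and their part in the differences of the CDK inhibitors was not tested. Lymphocyte markers (4 of 8 with a row) summed to between 4.45 and 15.4 FPKM and stromal and endothelial markers (5 of 8) to between 4.17 and 5.91 FPKM.

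In the control line, CDKN2C (p18) had the highest level of the members and CDKN1A (p21) the lowest. FPKM is per length of transcript, so levels may be compared between genes. CDKN2C had 56.9 FPKM in CTR, above 83.6% of the genes over 1 FPKM there. CDKN3 followed with 37.0 FPKM and CDKN1B (p27) with 30.4 FPKM. CDKN2D had 9.38, CDKN1C 8.78 and CDKN1A 3.20 FPKM, the last above only 16.8% of expressed genes. CDKN1A made up 2.2% and CDKN1B 20.9% of the summed FPKM of the 6 genes. CDKN2C alone made up 39.0% of this sum.

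The order of the 6 genes was the same in P30, which had 48.1 FPKM of CDKN2C, 35.2 of CDKN3, 32.8 of CDKN1B, 10.5 of CDKN2D, 8.46 of CDKN1C and 2.69 of CDKN1A. In CEBPA the upper part of the order was also kept, with 44.8 FPKM of CDKN2C, 25.9 of CDKN3 and 21.2 of CDKN1B. Its lower part differed, since CDKN1A reached 5.82 FPKM, close to the 6.17 of CDKN2D, while CDKN1C was last with 2.56. CDKN1A and CDKN1C, related proteins of the Cip/Kip family, thus exchanged places, and their shares of the sum went from 2.2% and 6.03% in CTR to 5.47% and 2.41% in CEBPA. Whether neighbours in these orders differ beyond replicate error cannot be said from pooled values.

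**Figure D2:**
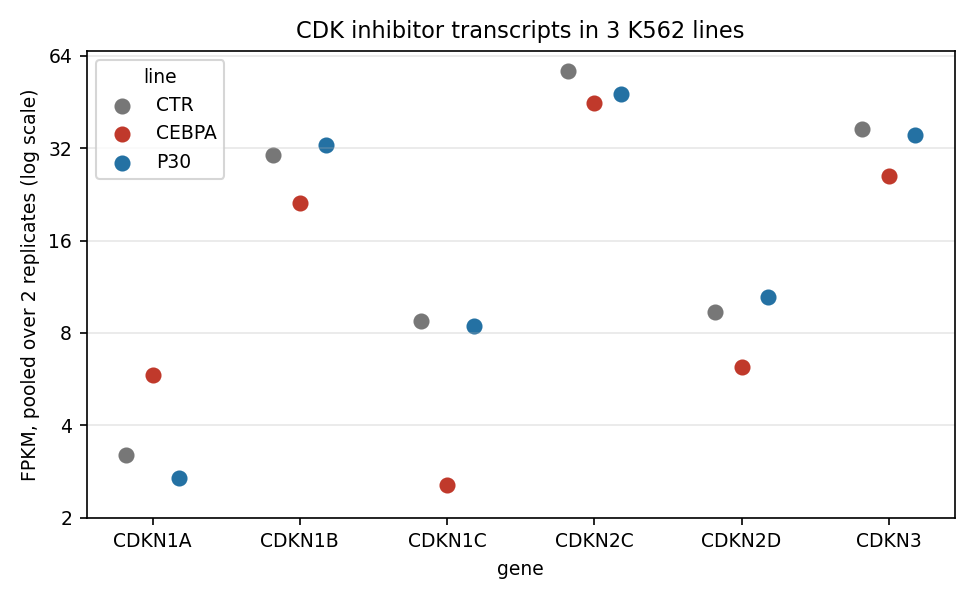
FPKM of each CDK inhibitor gene in the CTR, CEBPA and P30 lines, on a log axis; each point is the authors' single value pooled over 2 replicates, so there are no error bars. CEBPA is the lowest line for 5 genes and the highest for CDKN1A (5.82 FPKM), and the widest gap is that of CDKN1C (2.56 in CEBPA, 8.78 in CTR and 8.46 in P30).

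The comparison of CEBPA with CTR asks which CDK inhibitor transcripts differ where the wild type protein is induced. Differences were taken on the scale log2(FPKM + 1), which understates the change of low genes, and a gene was counted as called when it differed at least 2-fold on this scale. CDKN1C was the only member called, at 8.78 FPKM in CTR against 2.56 in CEBPA, a log2 difference of -1.46. Of all 13673 genes compared, 6.92% were called lower in CEBPA and 14% called higher, against 1 and 0 of the 6 members. A share of 1 in 6 is too coarse to set apart from this background. A difference as low as that of CDKN1C or lower was seen in 308 genes, or 2.25%.

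CDKN1A went the other way. Its transcript stood at 3.20 FPKM in CTR against 5.82 in CEBPA, a ratio of 1.82 and a log2 difference of 0.70, which did not reach the 2-fold limit. A difference as high or higher was found in 20.8% of genes. CDKN1A was the highest of the members by this measure and the only one above 0.

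The other 4 members were lower in CEBPA by similar amounts. CDKN2D went from 9.38 to 6.17 FPKM, with a log2 difference of -0.53, and CDKN1B from 30.4 to 21.2 FPKM, with -0.50. CDKN3 had 37.0 and 25.9 FPKM, also -0.50 on the log2 scale, and CDKN2C 56.9 and 44.8 FPKM, or -0.34. None of these was unusual among all genes, since between 20.9% and 30.7% of genes were as low or lower, and the spread of the differences over all genes was 0.73 (scaled median absolute deviation). The median over the 6 members was -0.50, against -0.01 over all genes compared, and 5 of 6 were lower by any amount, against 50.5% of all genes. With FPKM rescaled to a common total, which moved the median of all genes by 0.12, the median of the members was -0.38 and the same 5 genes were below 0. For p27, CTR held 1.44 times the transcript level of the line in which the wild type protein was induced.

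The comparison of P30 with CTR asks the same of the p30 isoform. No member was called, and among 12395 genes compared 1.02% were called higher and 0.613% called lower in P30. CDKN1B stood at 30.4 FPKM in CTR against 32.8 in P30, with a log2 difference of 0.11, and CDKN2D was 0.14 higher. CDKN1C, CDKN3 and CDKN1A differed by -0.05, -0.07 and -0.19. CDKN2C was furthest from CTR, at 56.9 FPKM against 48.1 in P30, with a log2 difference of -0.24, and 12.9% of genes were as low or lower. The median over the members was -0.06 against 0.02 over all genes. The spread over all genes around this median was 0.20, and CDKN2C and CDKN1A lay below it.

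The CEBPA and P30 lines were also compared directly. In CEBPA against P30, CDKN1C was again the member called, with 2.56 and 8.46 FPKM and a log2 difference of -1.41, where 5.79% of 13569 genes were called lower and 13.1% called higher. CDKN1A had 5.82 FPKM in CEBPA and 2.69 in P30, a ratio of 2.17. Its log2 difference of 0.89 missed the limit with the pseudocount of 1, whereas without a pseudocount it was 1.12 and CDKN1A was called as well. CDKN2D differed by -0.68, CDKN1B by -0.61 and CDKN3 by -0.43. CDKN2C hardly differed between CEBPA and P30, at 44.8 and 48.1 FPKM. Its log2 difference of -0.10 turned to 0.04 when the FPKM were rescaled to a common total. This comparison and the one with CTR share the CEBPA libraries, so they are not separate evidence for the low values in CEBPA.

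**Figure D3:**
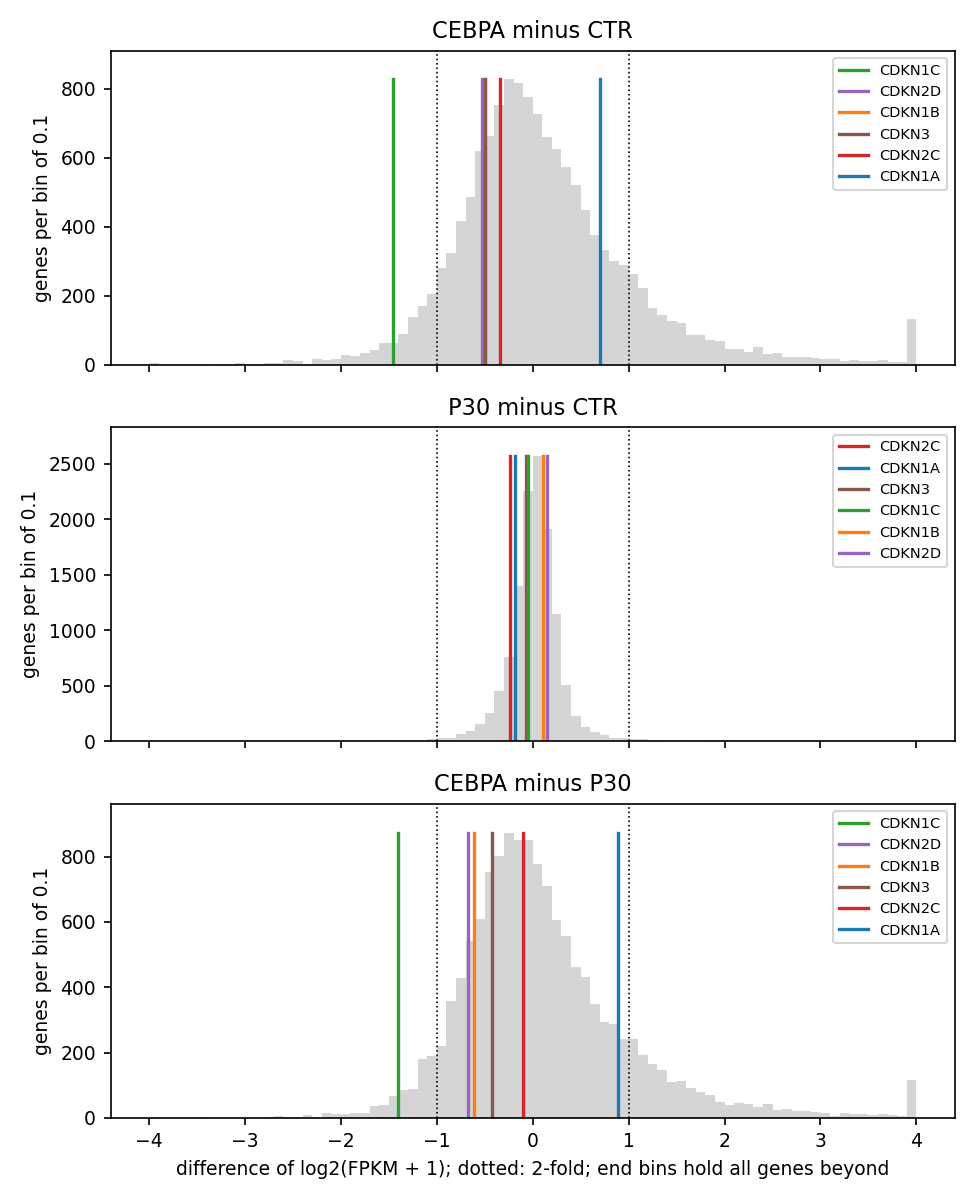
Difference of log2(FPKM + 1) of each CDK inhibitor gene (coloured lines) for the 3 pairs of lines, over the histogram of all genes compared (grey, genes per bin of 0.1, with 125, 6 and 109 genes beyond 4 in either direction gathered in the end bins). In both comparisons with CEBPA the line of CDKN1C lies beyond the dotted 2-fold limit and that of CDKN1A is the only one above 0 (CDKN2C in CEBPA minus P30 turns to 0.04 after rescaling), while in P30 minus CTR all members lie between -0.24 and 0.14.

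Over the 3 lines, CEBPA was the lowest for CDKN1B, CDKN1C, CDKN2C, CDKN2D and CDKN3 and the highest for CDKN1A, although the CDKN2C values of CEBPA and P30 exchanged their order when rescaled. Of 13670 genes over 1 FPKM in at least 1 line, 46.7% were lowest and 43.7% highest in CEBPA. The summed FPKM of the 6 genes was 146, 106 and 138. By family, Cip/Kip transcripts summed to 42.4, 29.6 and 43.9 FPKM, and the INK4 transcripts CDKN2C and CDKN2D to 66.2, 51.0 and 58.5 FPKM. In CEBPA compared with CTR, CDKN1A was 2.62 FPKM higher, whereas CTR exceeded CEBPA by 9.23 FPKM of CDKN1B and 6.21 FPKM of CDKN1C.

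UCA1 is the transcript that the study connects with p27. Its FPKM were 29.6, 13.5 and 74.9, beside 30.4, 21.2 and 32.8 for CDKN1B. Both transcripts were thus lowest in CEBPA and highest in P30, with a far wider range in UCA1. The log2 difference of P30 and CTR was 1.31 for UCA1 and 0.11 for CDKN1B. A difference as high or higher was seen in 0.589% and 33.2% of genes. Of genes over 1 FPKM in at least 1 line, 46.7% were lowest in CEBPA, whatever their order in CTR and P30. All FPKM given are transcript levels in 3 lines, and p27 protein was not measured by RNA-seq. The paper's link concerns the protein, which it found higher by western blot after knockdown of UCA1. It also found UCA1 bound to hnRNP I, described there as a regulator of p27 translation. The transcript levels given here do not test that link.

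Of the kinases that these inhibitors bind, CDK2 and CDK4 were lower in CEBPA as well, and CDK6 was not. CDK2, the main target of p21 and p27, had 85.2, 37.4 and 82.6 FPKM. CDK4, bound by p18 and p19, had 197, 109 and 210 FPKM, whereas CDK6 was the lowest of these kinases in all lines, at 10.2, 11.8 and 10.7 FPKM. Relative to these kinases, some of the inhibitor transcripts were highest in CEBPA and others lowest. The ratio of summed Cip/Kip FPKM to CDK2 FPKM was 0.497, 0.791 and 0.532, again in the order CTR, CEBPA and P30, and that of CDKN1B alone to CDK2 was 0.357, 0.566 and 0.397. CDKN1A to CDK2 gave 0.0375, 0.156 and 0.0325, whereas CDKN1C to CDK2 was lowest in CEBPA, at 0.103, 0.0686 and 0.102. The ratio of CDKN2C and CDKN2D to CDK4 and CDK6 was 0.320, 0.422 and 0.265, a sum that CDK4 dominates, and to CDK6 alone it was 6.48, 4.30 and 5.47, with CEBPA the lowest. CDKN3 to CDK2 gave 0.435, 0.694 and 0.426, while CDKN3 to CDK1, the mitotic kinase, stayed between 0.166 and 0.182. Such ratios compare genes within a line and do not depend on how the lines were scaled to each other, but they are ratios of transcripts and not of proteins.

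**Figure D4:**
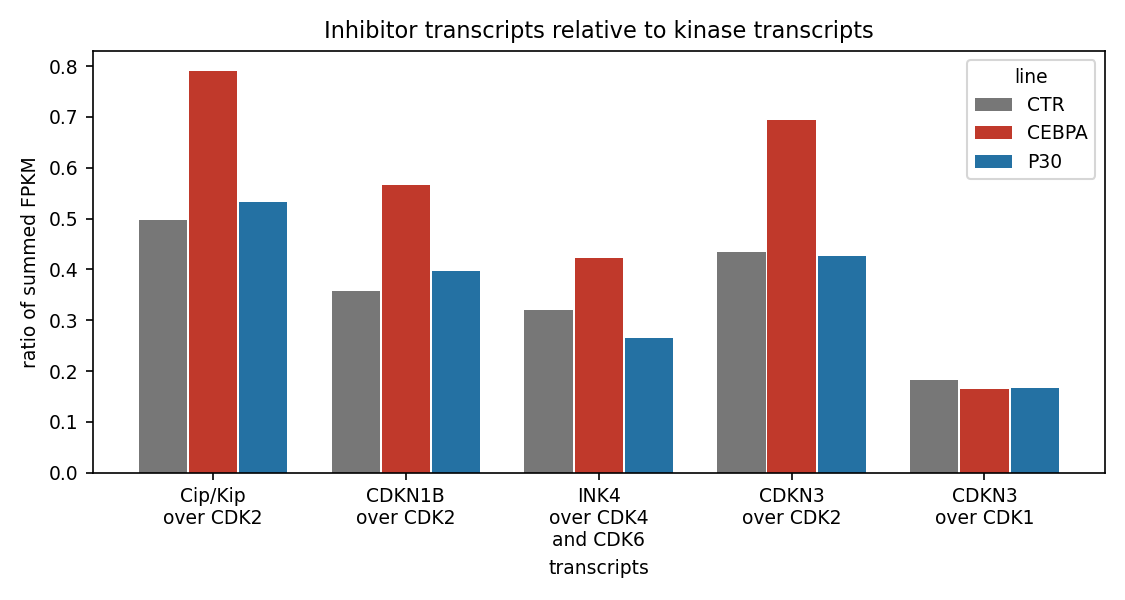
Ratio of the FPKM of inhibitor transcripts to the FPKM of the kinases they act on, in each line, from values pooled over 2 replicates (no error bars). CEBPA has the highest bar for Cip/Kip over CDK2 (0.791), CDKN1B over CDK2 (0.566), INK4 over CDK4 and CDK6 (0.422) and CDKN3 over CDK2 (0.694), but not for CDKN3 over CDK1 (0.166).

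Of 9 G1 and S phase cyclins and CDKs, 2 were at least 2-fold lower in CEBPA than in CTR, CDK2 and cyclin E1 (CCNE1, 23.3 and 10.7 FPKM), and none was called higher, where 6.92% of all genes were called lower and 14% higher. Their median log2 difference was -0.65, below the -0.50 of the CDK inhibitors. Cyclin D3 (CCND3), the D-type cyclin with the highest level in these cells, had 183, 99.7 and 259 FPKM, and its log2 difference of 0.50 between P30 and CTR was the highest in the list. Of the 7 genes of the G2 and M phase list with a single row, 1 was called, PKMYT1, a kinase that holds back CDK1, with 65.2 FPKM in CTR and 27.2 in CEBPA. The median of that list was -0.23. None of the genes of these lists was called in P30 against CTR.

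Proliferation genes had a lower median in CEBPA against CTR than the inhibitors. Of 16, 15 were lower by any amount, against 50.5% of all genes, and 3 were called lower, against 6.92%, with a median log2 difference of -0.74. The furthest was TYMS, the thymidylate synthase of nucleotide supply, with 106 FPKM in CTR and 41.3 in CEBPA. CDKN3, whose transcript belongs to dividing cells, was with -0.50 closer to 0 than this median. In P30 against CTR the median of the proliferation genes was 0.08, and none was called.

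Among 9 pocket proteins and E2F factors, 3 were called lower in CEBPA than in CTR and 1 called higher, beside 6.92% and 14% of all genes. E2F1 and E2F2, activators of S phase genes, were among the lower ones, and the lowest was E2F2, with 13.6 and 4.86 FPKM. The related repressors E2F7 and E2F8 went opposite ways, E2F7 from 5.28 to 16.1 FPKM, a log2 difference of 1.44, and E2F8 from 10.0 to 4.20 FPKM, or -1.08. E2F5, which acts mainly as a repressor, had 5.93 and 12.3 FPKM, a log2 difference of 0.94. RBL2, the pocket protein p130 of resting cells, had 26.9 FPKM in CTR and 43.9 in CEBPA, a log2 difference of 0.68.

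The genes listed around the turnover of p27, not all of which act on p27 itself, differed in both directions. SKP2, the F-box protein that marks p27 for degradation, had 42.6, 84.5 and 44.5 FPKM, a log2 difference of 0.97 between CEBPA and CTR. CKS1B, its cofactor in the recognition of p27, had 297, 205 and 304 FPKM. FBXW7, the F-box protein that marks cyclin E, had the highest log2 difference of the list in CEBPA against CTR, 1.46, although its level was low, with 6.23 FPKM in CTR and 18.9 in CEBPA. RNF123 and UBAC1, the subunits of the ligase KPC that acts on p27 in the cytoplasm, were both at least 2-fold lower, at 26.2 and 12.1 FPKM and at 253 and 75.9 FPKM. In all, 1 of 10 genes of this list was called higher and 2 lower in CEBPA, beside 14% and 6.92% of all genes, with a median of -0.21. The gene called higher was FBXW7, and SKP2 did not reach the limit. None was called in P30 against CTR.

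Of the 13 regulators of p27 and p21 transcription over the limit of 1 FPKM, only EGR1 was called in CEBPA against CTR, as higher. Of all genes, 14% were called higher and 6.92% lower. EGR1, an immediate early factor that can activate CDKN1A, had 34.6, 125 and 21.8 FPKM. CDKN1A had the same order of the lines, but 43.7% of 13670 genes were highest in CEBPA, whatever their order in CTR and P30. A link between EGR1 and CDKN1A was not tested. KLF6 and SMAD3, which can also act on CDKN1A, had log2 differences of 0.93 and 0.78. MYC, a repressor of CDKN1A, had 81.8, 56.3 and 102 FPKM. FOXO4, of the forkhead factors that activate CDKN1B, went from 22.6 to 11.0 FPKM and FOXO3 from 9.30 to 7.93, whereas FOXO1 was low and went from 0.575 to 1.62 FPKM, a log2 difference of 0.73. SP1, a factor of GC-rich promoters, had 21.9 FPKM in CTR and 15.2 in CEBPA, a log2 difference of -0.49. The median of this list in CEBPA against CTR was -0.14.

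The genes that p53 activates together with CDKN1A did not share its direction as a group. Of 13 compared in CEBPA against CTR, 3 were called higher and 5 called lower, beside 14% and 6.92% of all genes, with a median of -0.53. FAS and PLK2 were under 1 FPKM in both lines and not among the 13, with log2 differences of 0.69 and 0.94, and with them the median was -0.27. SESN1, a stress protein, had 14.7 FPKM in CTR and 75.4 in CEBPA, and RRM2B and TP53INP1 were the others called higher. MDM2, the ubiquitin ligase of p53, went from 22.7 to 9.86 FPKM, and FDXR from 57.5 to 13.5 FPKM. In P30 against CTR none of 13 was called, 5 were above 0 and 8 below it, and the median was -0.10. The differences ran from -0.52 for PLK3 to 0.21 for RRM2B, with -0.19 for CDKN1A.

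A last list held other genes tied to CDKs or CDK inhibitors by binding or only by name. Of these, 12 were compared in CEBPA against CTR and 10 in P30 against CTR, and none was called. Of all genes, 14% were called higher and 6.92% lower in CEBPA, and 1.02% and 0.613% in P30. In CEBPA against CTR, 6 of the 12 were higher and 6 lower, with a median of 0.006. The lowest was CDKN2AIPNL, with -0.58. CCNH, CDK7 and MNAT1, which form the CDK-activating kinase, had log2 differences of 0.58, 0.38 and 0.28 in CEBPA against CTR, opposite to those of CDK2 and CDK4.

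**Figure D5:**
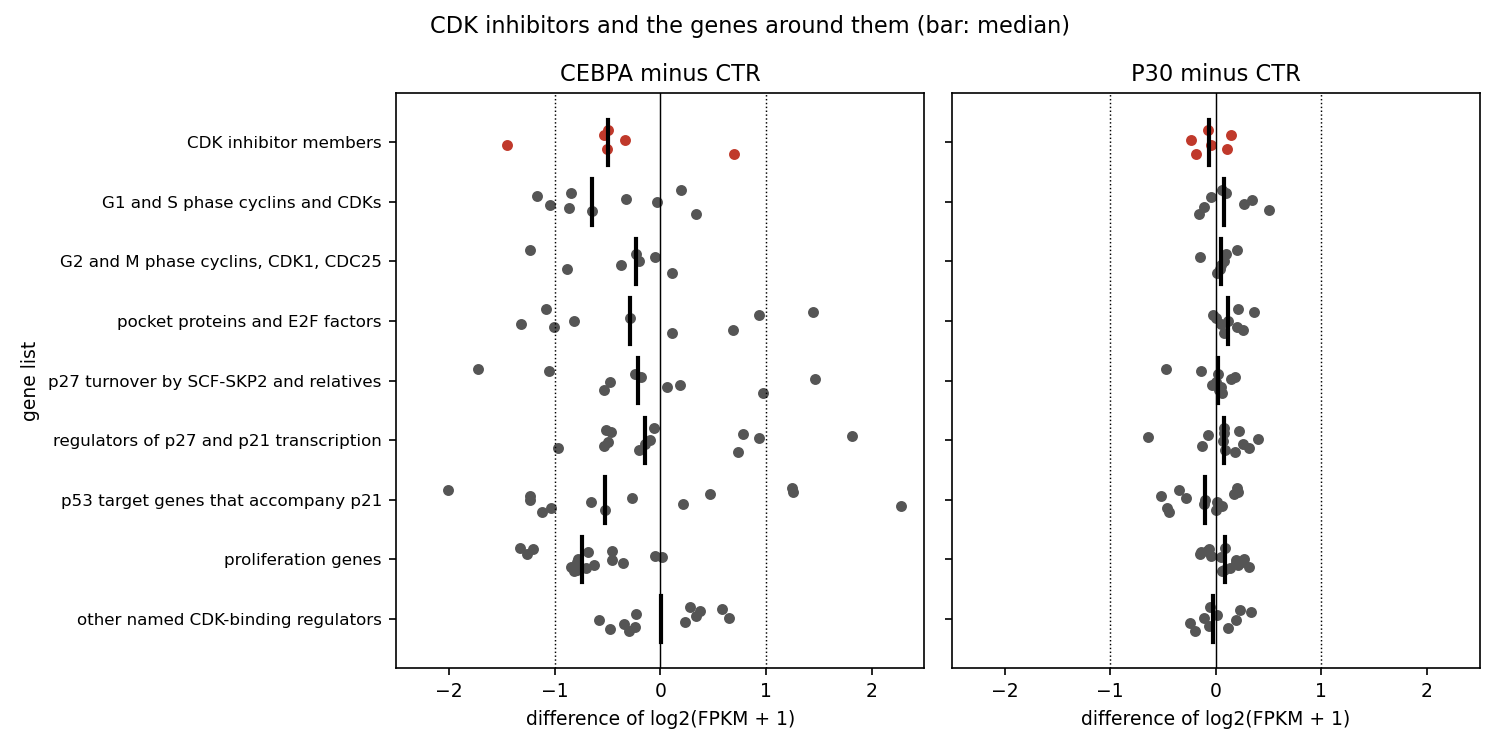
Difference of log2(FPKM + 1) of every gene over 1 FPKM in at least 1 of the 2 lines, by list, for CEBPA minus CTR (left) and P30 minus CTR (right); each point is 1 gene, black bars are medians and dotted lines the 2-fold limits. In CEBPA minus CTR the CDK inhibitors (red) have a median of -0.50, between the G1 and S phase genes (-0.65) and the G2 and M phase genes (-0.23), and in P30 minus CTR no gene of any list passes a 2-fold limit.

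For each member the 3 genes with the most similar pattern were found, by the Euclidean distance between log2(FPKM + 1) values of the 3 lines after each gene's mean was taken off, among 13669 genes. With only 3 pooled values a pattern is easily shared, and the number of genes within a distance of 0.1 shows how common it is. For CDKN1C only 35 genes were so close, the nearest being PKLR, the red cell pyruvate kinase, with 55.1, 19.5 and 53.6 FPKM, then GPR146 and PTMS. For CDKN1A there were 138, led by the uncharacterised RP11-495P10.5 and RP11-73M18.9, both low, and ZMYM2, with 17.6, 29.0 and 15.4 FPKM. The patterns of CDKN2C, CDKN2D, CDKN1B and CDKN3 were shared by 308, 435, 581 and 735 genes. CDKN1B was closest to THAP8, POLDIP3 and NASP, the last a histone chaperone of S phase with 318, 223 and 340 FPKM. The closest to CDKN2D were BCL6B, CLSPN and CKAP2L, of which CLSPN (claspin, 19.6, 13.3 and 21.9 FPKM) acts at replication forks. CDKN3 was closest to TMEM41A, EIF3B and MEA1, and CDKN2C to C5orf58, CDK5R1 and MAD2L1BP.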

How the data were processed

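RNA-seq of 6 K562 samples was used, 2 each of CTR, CEBPA and P30. The authors mapped stranded read pairs with TopHat against hg19, used Cufflinks with a Gencode annotation for assembly and deposited FPKM estimated by Cuffdiff, 1 value per gene and group with the replicates pooled, in 3 tables of 16938 (CTR and CEBPA), 16843 (CEBPA and P30) and 14956 rows (CTR and P30). The methods name separate sequencing runs with different instruments, which pooled values do not separate. Depth per sample is unknown from these values, and no column was left out.

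Differences of log2(FPKM + 1) were computed among rows over 1 FPKM in at least 1 group of a pair, and a difference of at least 2-fold on this scale was counted as called. Symbols with 1 row per table were joined by name, and 0 of them had values that differed between tables. No test was run, since there are no replicate values. The spread over genes is the median absolute deviation times 1.4826. The named genes are the 6 members, UCA1, genes of 8 lists around the members, picked by size of difference or because they act on a member, and the 3 genes nearest in pattern. The members and lists were chosen with earlier results of these data known, and the ratios to kinases were chosen after the values were seen. Of the listed genes, those without a single row were not analysed here, and 1 erythroid marker is not reported here. Gene positions are from a later Gencode release on GRCh37 than the authors', and promoter windows are from RefSeq (GRCh38.p14) and were placed on GRCh37 by exact match. The computations were run on simulated data with changes set well beyond the limit for a call, which checks the code and not the differences reported here. Python 3.11.15, numpy 2.4.6, pandas 2.3.3 and matplotlib 3.10.9 were used.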

Additional observations from a re-analysis of the deposited data

How the results depend on the processing

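No paired analysis was possible because both replicates of a group are pooled into 1 value, and leaving out each replicate could not be run either. A log2 difference was taken as moved when it shifted by more than 0.20, the spread over genes of P30 minus CTR, and a count when it shifted by over 1.5 times. Over 57 results, 204 values were recomputed, of which 18 moved beyond these limits. A turn of direction was looked for only in called log2 differences, which were those of CDKN1C in CEBPA vs CTR and CEBPA vs P30. Neither turned, but differences of that size could hardly do so under these settings, so this says little about stability. Of the differences of single members, only those of CDKN1A and CDKN1C moved. In CEBPA vs P30, CDKN1A passed the 2-fold limit, so that 1 member was called higher, with pseudocount 0.1 (1.09), with no pseudocount (1.12) and with FPKM rescaled to a common total (1.08). CDKN2C in CEBPA vs P30 lay between -0.10 and 0.04 and thus has no fixed direction, 0.04 being its value after rescaling. Rescaling moved the median of all genes by 0.12 in CEBPA vs CTR and by 0.14 for CEBPA vs P30. CDKN1B lay between -0.52 and -0.39 in CEBPA vs CTR and between 0.08 and 0.11 in P30 vs CTR.

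Over all genes, a filter at 5 FPKM left 1216 genes called higher in CEBPA vs CTR, 81 in P30 vs CTR and 1080 for CEBPA vs P30, since fewer genes were compared. With pseudocount 0.1, 200 genes were higher and 184 lower in P30 vs CTR. The median of the G1 and S phase genes in CEBPA vs CTR was -0.85 with pseudocount 0.1. Without a filter on FPKM, the median of the p53 target genes was -0.27 in CEBPA vs CTR, and for CEBPA vs P30 it was 0.017, since genes low in both groups then enter. The other causes were not tested.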
